A study of Schizosaccharomyces pombe with 3 samples.

Results

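Translation elongation factor genes were examined in chromatin bound by Tup11 in fission yeast (Schizosaccharomyces pombe). Members were the array features whose name, without the intergenic prefix, starts with ef1 or eft2 or is tef3, SPBC839.15c or SPBC839.16. The rule found 11 of the 9969 features in all. Of the 11, 5 lie in an open reading frame (ORF features) and 6 between genes (intergenic features). No feature carried the name SPBC839.15c. There was 1 group of 3 arrays: cells carrying Tup11 tagged with green fluorescent protein (GFP), growing exponentially (mid-log) in the rich medium YES, with chromatin precipitated by a polyclonal antibody against GFP and hybridised with input DNA. All arrays share the tag, the medium and the antibody, and no untagged strain was analysed here, so each ratio is precipitate over input within 1 strain. Replicates 1 and 2 were slides labelled E120D, and replicate 3 was a slide labelled F060D, deposited under a different platform record. The labels speak of separate experiments without tying a slide to one. The p-values thus measure only the spread between these 3 arrays, which the main limma fit pooled over all tested features. The number of arrays limits the precision.

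Tup11 belongs to the Tup1 family of corepressors, which do not read DNA themselves and are brought to genes by sequence-specific factors. Elongation factors carry the ribosome along the messenger: eEF1A brings the aminoacyl-tRNA, eEF1B recharges eEF1A with GTP, eEF2 moves the ribosome on, and eEF3 is an ATPase of fungi needed in each cycle. Their genes are among the most highly expressed of a growing yeast cell. In the reference ASM294v3, eEF1A is encoded by tef101, tef102 and tef103, eEF2 by eft201 and eft202, and eEF3 by tef3. SPBC839.16 is thf1, a tetrahydrofolate synthase gene that is not an elongation factor. It is a member because its intergenic feature lies in the divergent gap that it shares with tef103 (SPBC839.15c).

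That gap runs from 627489 to 628029 on chromosome II, 541 bp between the coding sequences, with the transcript starts of tef103 on the minus strand and thf1 on the plus strand 480 bp apart. The feature name ef1a-b was matched to tef102 by a synonym, its gap lying at 4094543 to 4095201 on chromosome I. The names eft2 and eft2-1 were matched to eft201, whose coding sequence spans 2907701 to 2910229 and whose gap spans 2910230 to 2911718 on chromosome I. The tef3 gap spans 1683272 to 1685665 on chromosome III. The names ef1-b, ef1-b-x2 and eft2-2 matched no symbol, synonym or systematic ID of the reference, so they have no coordinates here and are called by their array names. The gene tef5, which encodes an eEF1B subunit, has its own features on the array under that name. Intergenic features were read as the gap 5′ of the gene they are named for: on replicate 3, the features of divergent neighbours, which would share a gap, correlated at Spearman rho = 0.48 over 1100 pairs, and those of convergent neighbours at 0.14 over 1112 pairs, all from 1 array.

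The 250 bases upstream of the annotated transcript start are shown from RefSeq ASM294v3 for the genes with a matched gap, because the gap of tef103 was raised and the gaps of tef102, eft201 and tef3 were not shown to be. Each is read 5′ to 3′ towards the gene. Capitals mark matches on either strand to TATAAA (the TATA element), CAGTCACA (the HomolD box, known from fission yeast ribosomal protein genes), the HomolE box or TGACGT (the CRE core). The matches shown do not overlap.
tef103 upstream, II:627523-627772, minus strand: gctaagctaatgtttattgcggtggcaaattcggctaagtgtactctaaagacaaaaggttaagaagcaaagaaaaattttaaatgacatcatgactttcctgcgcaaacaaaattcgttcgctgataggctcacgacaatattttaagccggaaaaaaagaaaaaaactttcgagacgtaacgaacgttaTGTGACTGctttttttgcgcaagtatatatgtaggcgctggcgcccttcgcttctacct
tef102 upstream, I:4094882-4095131, plus strand: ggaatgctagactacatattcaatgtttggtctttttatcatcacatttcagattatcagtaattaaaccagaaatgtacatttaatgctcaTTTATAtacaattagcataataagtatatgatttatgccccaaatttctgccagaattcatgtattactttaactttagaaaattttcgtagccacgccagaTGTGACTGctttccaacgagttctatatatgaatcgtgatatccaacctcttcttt
eft201 upstream, I:2910262-2910511, minus strand: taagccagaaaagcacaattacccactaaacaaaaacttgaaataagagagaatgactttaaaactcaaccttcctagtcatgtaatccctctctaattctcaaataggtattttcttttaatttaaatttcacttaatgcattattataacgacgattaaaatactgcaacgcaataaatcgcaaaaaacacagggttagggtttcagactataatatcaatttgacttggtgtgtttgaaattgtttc
tef3 upstream, III:1685395-1685644, plus strand: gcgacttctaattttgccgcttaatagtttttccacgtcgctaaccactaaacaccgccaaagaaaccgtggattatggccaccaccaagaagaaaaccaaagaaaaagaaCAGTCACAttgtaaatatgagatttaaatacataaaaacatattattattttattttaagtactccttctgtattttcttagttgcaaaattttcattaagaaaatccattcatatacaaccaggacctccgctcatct

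The HomolD box was matched 59 bases before the transcript start of tef103 and 56 bases before that of tef102, in both on the opposite strand, and 139 bases before that of tef3. It was also matched 44 bases before the start of tef101, and it was absent from these letters upstream of eft201, eft202, tef5 and thf1. Of 5112 such windows of protein-coding genes, 2.62% held it, 44.41% held the TATA element, 1.21% the HomolE box and 5.52% the CRE core. The raised gap and the gaps of tef102 and tef3 thus share this match, which describes letters and not binding. The ends of the spotted PCR products were not used here, so a feature may cover only some of its gap. None of the 517 words of 25 bases in the tef103 and thf1 gap occurred elsewhere in the genome. The coding sequences are near copies: tef101, tef102 and tef103 were 98.6% to 98.9% identical in pairs, and eft201 and eft202 99.6%, so ORF features of these families are uncertain as to which copy they measure.

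The log2 ratio of precipitate to input is used throughout, with the median feature of an array at 0. The scanner tables name the channels A and B and not the dyes. As channel B over A, replicates 1 and 2 correlated at r = 0.72, and replicate 3 correlated with them at r = -0.54 and -0.38, so no direction is settled by the letters. The likely direction takes as precipitate the channel that the deposited value tables follow, which was B on replicate 1 (slope 1.11 against -0.14 for A), B on replicate 2 (0.88 against -0.23) and A on replicate 3 (1.09 against -0.11). Mitochondrial ORF features, which a nuclear protein does not meet, then had medians of -3.20, -3.91 and -2.11 on replicates 1 to 3. What the deposited values hold on replicates 1 and 2 is not settled (r = 0.65 and 0.53 with both channels). That the channel they follow is the precipitate is thus an assumption and was not tested. The labels give Cy5 precipitate on every array, while this reading exchanges the letters on replicate 3 alone. The calls, ranks and list counts are also given under the other reading, in which channel B is the precipitate on replicate 3 too (called the same letters), and which by construction shrinks what the arrays share.

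The intergenic features of ef1-b and SPBC839.16 were the raised members, and the ORF features were not. Of the 11 members, 8 had a ratio on all 3 arrays and were tested, namely all 5 ORF features and 3 of 6 intergenic ones. Among these, 2 intergenic features were above the array median and 0 members were below it (limma, Benjamini-Hochberg adjusted p under 0.05 over all 4267 tested features; at an unadjusted p under 0.05 the counts were also 2 and 0). Over all tested features 9.23% were above and 10.6% below. Among intergenic features 21.5% were above and 1.87% below, and among ORF features 2.24% were above and 15.5% below. Calls above made up 46.6% of all calls (394 above, 451 below), 70.0% with centring on the features of all arrays, 80.8% with loess and 29.4% when rejected input spots were given a low value. limma gave every feature the same standard error, 0.36, so a feature's own spread is given by its SD. For the raised gaps that error is smaller than the one their own SD gives, and their adjusted p-values are correspondingly small: limma's trend gave 2.64e-04 for ef1-b and 2.11e-04 for SPBC839.16, and loess 0.0017 and 0.00246 (adjusted p).

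**Figure D1:**
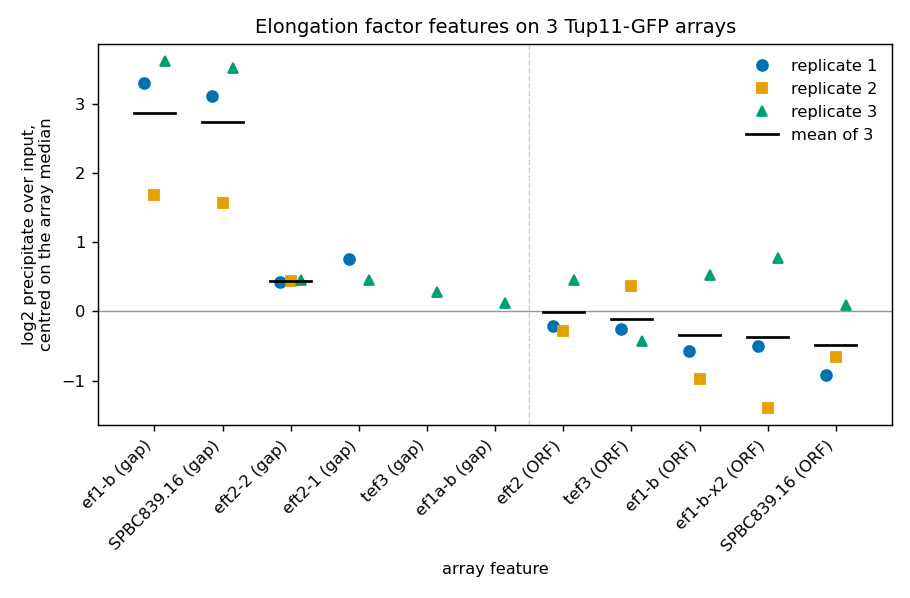
Log2 ratio of precipitate over input for the 11 members (x axis), which include the features of SPBC839.16 (thf1). Gaps lie left and ORFs right of the dashed line, with a point for each array that gave a ratio and a bar for the mean of 3. The gaps of ef1-b and SPBC839.16 lie between 1.57 and 3.61 on every array, and all other points lie below 0.8.

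For the intergenic feature of ef1-b the log2 ratio was 3.30, 1.68 and 3.61 on replicates 1 to 3. All 3 values lay far above the array median, with replicate 2 the lowest. The mean was 2.86 ± 1.03 (SD, n = 3), a fold of 7.28 over the array median (limma adjusted p = 3.64e-13, 9th highest of 1548 intergenic features, and 248th under the same letters). In scanner units the precipitate and input signals of this feature were 2049568 and 130568 on replicate 1, 375082 and 56904 on replicate 2, and 3769077 and 361067 on replicate 3. The precipitate exceeded the input several-fold on each slide. Its ratio stood at percentiles 99.8, 97.1 and 99.9 of the arrays, above the 85th percentile that the submitters' protocol sets for its binding list.

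The gap of tef103 and thf1, measured by the intergenic feature of SPBC839.16, had log2 ratios of 3.11, 1.57 and 3.51. The order of the arrays was the same as for ef1-b. The mean was 2.73 ± 1.02 (SD, n = 3), a fold of 6.63 (limma adjusted p = 5.56e-12, 12th highest of the intergenic features, and 321st under the same letters). Precipitate and input signals were 1414642 and 102563, 276862 and 45604, and 2902418 and 298178 on replicates 1 to 3. The percentiles were 99.7, 96.1 and 99.8. By the median percentile over arrays, these 2 of the 8 members reached the 85th percentile, as did 10.2% of all tested features. Under the same letters the share of all tested features was 6.8%. The count of members stayed at 2, which replicates 1 and 2 fix alone: their percentiles do not change, so this count cannot test the direction.

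The calls of both gaps were lost when replicate 3 was read with the same letters, and were kept when it was left out. Read with the same letters, replicate 3 had -3.61 for ef1-b and -3.51 for SPBC839.16, the means were 0.46 and 0.39, and neither passed (limma adjusted p = 0.941 and 0.954). On the E120D slides alone the means were 2.49 and 2.34 (limma adjusted p = 1.58e-08 and 1.18e-07, n = 2). On the F060D slide the values were 3.61 and 3.51. Without replicate 1 they were 2.65 and 2.54 (limma adjusted p = 0.0346 and 0.0387).

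The ratios of these gaps were close to each other on every array. The ef1-b feature was higher by 0.19, 0.12 and 0.10 on replicates 1 to 3 (0.14 ± 0.05, SD, n = 3). That is of the size of the difference between the paired spots of 1 feature, whose median over members was 0.20, 0.10 and 0.05 on replicates 1 to 3. The ef1-b feature has no coordinates here, so whether both features cover the same stretch of DNA was not tested. Among 1547 other intergenic features, the nearest to ef1-b by Euclidean distance over the 3 arrays were the features of fip1 (0.16), SPBC839.16 (0.25), fio1 (0.35), SPCC74.09 (0.43) and adh1 (0.43). Of these, fip1 and fio1 encode the permease and ferroxidase of reductive iron uptake and adh1 an alcohol dehydrogenase. The nearest to SPBC839.16 were ef1-b (0.25), fip1 (0.37), SPBC354.11c (0.48), SPCC74.09 (0.49) and fio1 (0.55).

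The third tested gap, named eft2-2, was lower. Its ratios were 0.43, 0.45 and 0.45, with a mean of 0.44 ± 0.01 (SD, n = 3, limma adjusted p = 0.407). That SD is smaller than the spread of its spots, which had 0.21 and 0.64 on replicate 1 and 0.33 and 0.57 on replicate 3, and on replicate 2 only 1 spot had an input signal. The median over all tested intergenic features was 0.32. Relative to the SPBC839.16 gap, the eft2-2 feature stood at -2.68, -1.12 and -3.06 on replicates 1 to 3, a mean of -2.29 ± 1.03 (SD, n = 3), further than the spread between arrays.

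The gaps of eft201, tef3 and tef102 lacked a detected input on 1 or both E120D slides and were not tested. The eft2-1 feature, for the gap of the eEF2 gene eft201, had 0.75 on replicate 1 and 0.45 on replicate 3. The tef3 feature had precipitate signals of 248474 and 347166 on replicates 1 and 2, where its input spots were rejected and listed at 0, and a ratio of 0.28 on replicate 3. The ef1a-b feature, for the gap of the eEF1A gene tef102, had 0.12 on replicate 3. On replicate 3, where all 11 members gave a ratio, the 4 other gaps thus lay between 0.12 and 0.45, far below the 3.51 and 3.61 of the raised ones. When rejected input spots were given a low value of their array, the tef3 gap had 1.85, 1.51 and 0.28, with a mean of 1.21 that did not pass (limma adjusted p = 0.0825), and the gaps of tef102 and eft201 had means of 0.55 and 0.54.

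None of the 5 ORF features passed. The ef1-b ORF feature had -0.57, -0.98 and 0.52 (mean -0.34 ± 0.78, SD, n = 3, limma adjusted p = 0.531). A further ORF feature named ef1-b-x2 had -0.50, -1.39 and 0.78 (mean -0.37 ± 1.09). Both were low on the E120D slides and raised on the F060D slide in the likely direction. With the same letters for replicate 3 they were below the median on all 3 arrays, with means of -0.69 and -0.89. Without replicate 3, ef1-b-x2 had -0.95 and passed as below the median (limma adjusted p = 0.0468), as did 873 of all 4267 tested features in that setting.

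The thf1 coding sequence, feature SPBC839.16, had -0.92, -0.65 and 0.10 (mean -0.49 ± 0.53, SD, n = 3, limma adjusted p = 0.347). The eEF2 feature eft2 had -0.21, -0.29 and 0.45 (mean -0.01 ± 0.41), and the eEF3 feature tef3 had -0.25, 0.37 and -0.43 (mean -0.10 ± 0.42). In the order of means the ORF features eft2, tef3, ef1-b, ef1-b-x2 and SPBC839.16 followed the eft2-2 gap, and neighbours in that order overlapped between arrays. The sign of the eft2 mean turned to 0.15 with centring on the features of all arrays and to 0.16 with loess, and that of tef3 turned to 0.06 with that centring.

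Where a gene had both kinds of feature on all arrays, the gap stood far above the ORF. For ef1-b the intergenic feature exceeded the ORF feature by 3.87, 2.66 and 3.09 on replicates 1 to 3. The mean difference was 3.21 ± 0.61 (SD, n = 3, limma adjusted p = 4.75e-04 over 776 genes). For SPBC839.16 the differences were 4.02, 2.22 and 3.41, with a mean of 3.22 ± 0.92 (limma adjusted p = 6.79e-04). These ranked 3rd and 2nd among the 776 genes, whose median difference was 0.76, with quartiles of 0.21 and 1.28, and of which 29.6% passed with the intergenic feature higher. The array-wide centre cancels in these differences. Over both genes the mean was 3.21 ± 0.75 (n = 3, exact sign-flip permutation p = 0.25, two-sided, the smallest that 3 arrays allow). Under the same letters for replicate 3 the differences fell to 1.15 for ef1-b and 0.95 for SPBC839.16 and neither passed (limma adjusted p = 0.855 and 0.862). They then ranked 80th and 145th of the 776 genes, whose median was 0.41 and of which 0 passed in limma (8 at an unadjusted p under 0.05). On replicate 3 alone, tef3 had 0.28 in its gap and -0.43 over its ORF, and eft201 had 0.45 and 0.45. The compared features differed in signal. Input of the ef1-b ORF feature stood at percentiles 98.2, 96.7 and 99.4 on replicates 1 to 3, and that of its gap at 58.4, 42.0 and 51.5. With loess, which removes a trend of the ratio with signal, the differences were 3.19 for ef1-b and 3.08 for SPBC839.16 in the likely direction.

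**Figure D2:**
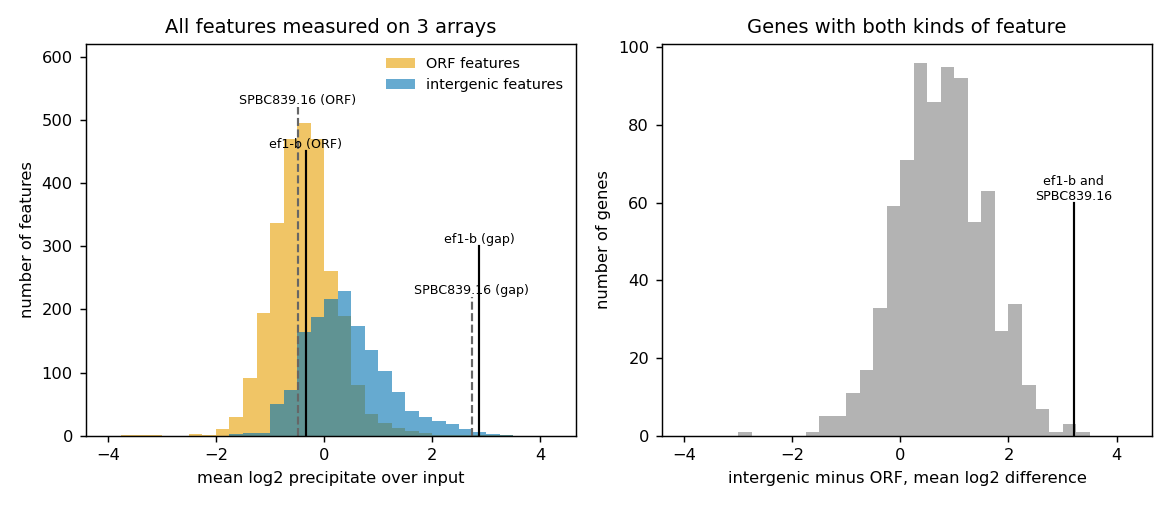
Left, number of features (y axis) by mean log2 ratio over 3 arrays (x axis) for 1548 intergenic and 2719 ORF features, with lines at ef1-b and SPBC839.16, and right, number of genes by mean intergenic minus ORF difference for 776 genes. The 2 gaps lie at 2.86 and 2.73, in the upper tail of the intergenic features, their ORFs at -0.34 and -0.49 lie within the bulk of ORF features, and the differences of 3.21 and 3.22 lie at the far right.

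Around the tef103 and thf1 gap, no other feature with a ratio reached that of the gap on the same array. No neighbouring gap gave a ratio on replicate 2. Genes within 3 places on each side were rpc31, rpl1601 and efm4 beyond tef103, and fkh1, SPBC115.03 and afg1 beyond thf1. No feature was matched to tef103, rpl1601 or SPBC115.03. The intergenic feature of efm4, which encodes a methyltransferase of elongation factors, had 0.87 on replicate 1 and 0.73 on replicate 3, and its ORF 0.87 and 0.41. The intergenic feature of fkh1, which encodes an FKBP-type prolyl isomerase, had 0.89 on replicate 3, and its ORF 1.02 and -0.24 on replicates 1 and 3. Further out, the rpc31 ORF had -1.09, -0.77 and 0.11, and its intergenic feature -0.62 and -0.69 on replicates 1 and 3. The afg1 intergenic feature had 1.90 on replicate 1 and 0.43 on replicate 3. On replicate 3 the gap of 3.51 therefore stood next to measured values between -0.69 and 0.89.

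**Figure D3:**
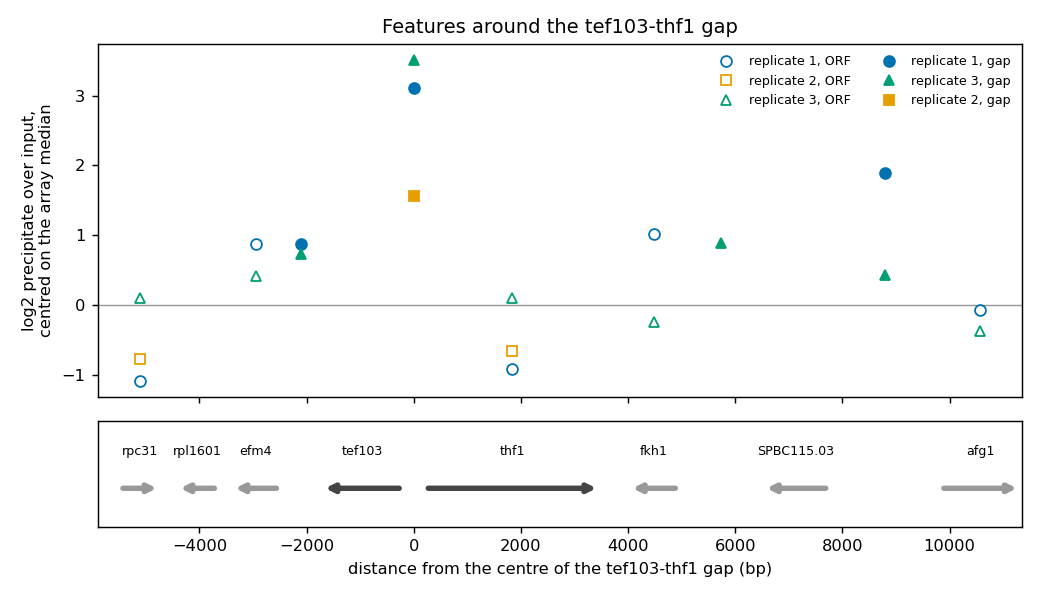
Log2 ratio (y axis) of features by distance in bp from the centre of the tef103 and thf1 gap (x axis), with filled points for gaps, open points for ORFs, 1 symbol per array, and genes drawn as arrows below. Gaps are placed midway between neighbouring coding sequences, and the rpc31 gap at the left edge is not drawn. The central gap lies at 1.57 to 3.51, above all other points of the same array. No other gap has a point for replicate 2.

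The array also carries Ef1-b control spots, which are technical checks and not members. The 64 spots of an array had median log2 ratios of -0.63 on replicate 1 (63 measured, from -1.26 to 1.24), -0.78 on replicate 2 (61 measured, from -1.91 to 1.45) and 0.74 on replicate 3 (64 measured, from -0.43 to 1.29). These medians lay near the ef1-b ORF feature on the same array (-0.57, -0.98 and 0.52) and far below the ef1-b intergenic feature. The SD over spots was 0.48, 0.72 and 0.26, so replicate 3 had the tightest spots. Spots named as dilutions of Ef1-b gave ratios at differing signals, and the signal did not fall evenly with the named dilution. Input was 193496 at dilution 2 and 260644 at dilution 4 on replicate 1, and 97586 and 142945 on replicate 2. On replicate 3 the ratio was 0.87 at dilution 1, 0.46 at dilution 4 and 0.22 at dilution 32, while input signal went from 1503975 to 354590. On replicate 2 it was -1.74 at dilution 1 and between -0.25 and -0.03 at dilutions 2 to 8. On replicate 1 it was -0.64 at dilution 1 and between -0.35 and -0.10 at dilutions 2 to 8. On replicates 1 and 2 dilutions 16 and 32 gave no ratio, with input listed at 0. At every further dilution with a ratio the value lay nearer the array median than at dilution 1, without an even order among the dilutions: on replicate 3 it was 0.63 at dilution 8, above that at dilution 4, and on replicate 1 it was -0.10 at dilution 4 and -0.35 at dilution 8.

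**Figure D4:**
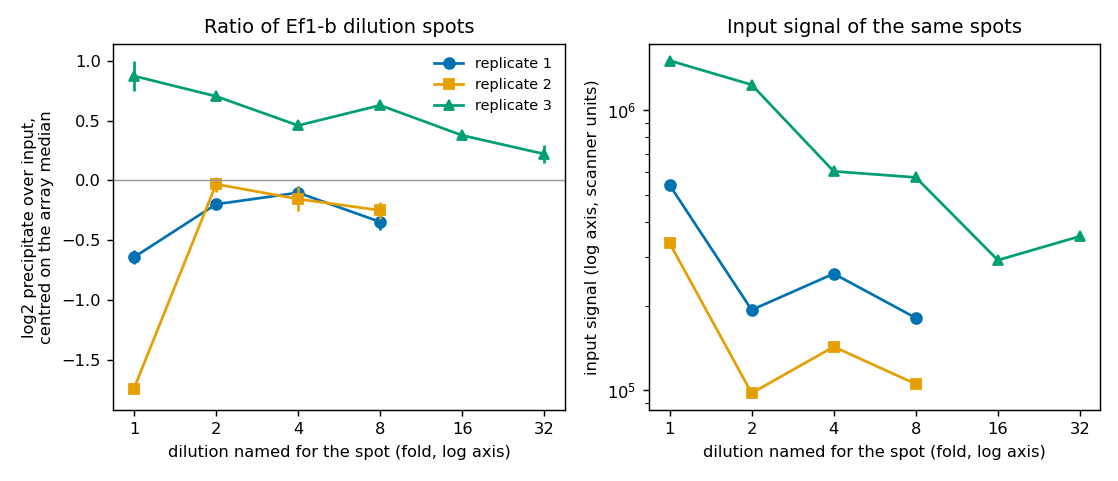
Left, mean log2 ratio of 2 spots for each named dilution of Ef1-b (x axis, log scale), with bars from the lower to the higher spot, and right, input signal of the same spots on a log axis. The ratio on replicate 3 goes from 0.87 to 0.22 from dilution 1 to 32, and those of replicates 1 and 2 start at -0.64 and -1.74.

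Of the elongation factor names outside the rule, tef5 and tef1-e, the ORF features were tested and did not pass, and the intergenic features lacked a ratio on replicate 2 and were not tested. The tef5 ORF feature, for an eEF1B subunit, had -0.87, 0.72 and -0.11 (mean -0.09 ± 0.80, SD, n = 3, limma adjusted p = 0.890), and its intergenic feature 0.79 on replicate 1 and -0.16 on replicate 3. The ORF feature tef1-e had -0.58, 0.73 and 0.70 (mean 0.28 ± 0.75, limma adjusted p = 0.619), and its intergenic feature 0.23 and 0.45 on replicates 1 and 3. These names were added after their values were seen, and tef1-e matched no symbol, synonym or systematic ID of the reference.

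Other translation factor genes, which act in initiation, elongation, termination or modification of the factors, were measured beside the members. Of their 46 intergenic features 15 were tested, and 3 were above and 0 below the median, and the median of the 15 was 0.17 where that of all tested intergenic features was 0.32. A share of 3 in 15 is near the 21.5% of all intergenic features. The 3 were the feature of tif34 (sum1), an eIF3 subunit gene, the feature of SPCC11E10.07c (gcn3), an eIF2B subunit gene, at 1.04 ± 0.88, and that of tif223, also of eIF2B, at 1.01 ± 0.41 (SD, n = 3). The tif34 feature had 0.84, 4.08 and 0.24 on replicates 1 to 3, so its mean of 1.72 rests on replicate 2. Without replicate 1 none of the 15 passed in limma (3 at an unadjusted p under 0.05), without replicate 2 only 1 did, and under the same letters none did in limma (0 also at an unadjusted p under 0.05). Next came tif51, the eIF5A gene, at 0.86 ± 0.96 and SPBC3B8.05 (dph1), which acts in the diphthamide modification of eEF2, at 0.65 ± 0.56, and neither passed. The lowest were tif45, the eIF4E gene, at -0.87 ± 0.44 and SPCC576.14 (dph5) at -0.91 ± 0.54.

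Of the 32 tested ORF features of these genes 0 were above and 1 was below, with a median of -0.23 against -0.39 for all tested ORF features. That 1 was SPAC21E11.06 (tif224), an eIF2B subunit gene, at -1.29 ± 0.81 (SD, n = 3, limma adjusted p = 0.00393). SPAC3A11.03 (efm3), a methyltransferase gene, had -0.90 ± 0.79. The highest were sla1 at 0.62 ± 0.69, tif512 at 0.58 ± 0.30 and dph5 at 0.50 ± 0.29. Over all tested ORF features 2.24% were above and 15.5% below. Of the tested intergenic features of ribosomal protein genes, 6 of 60 were above and 1 was below (median 0.33), and of those of glycolysis genes 10 of 11 were above (median 1.77), where 21.5% of all tested intergenic features were above. Under the same letters none of the intergenic or ORF features of these 3 lists passed in limma (at an unadjusted p under 0.05, 0 of the intergenic features and 2 ribosomal protein ORF features, both below), and the medians of the ribosomal and glycolysis intergenic features were 0.10 and 0.12.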

How the data were processed

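Each of 3 spotted 2-colour arrays carried Cy5 precipitate and Cy3 input of the Tup11-GFP strain. Per the labels' protocols and the file headers, spots were read with TIGR Spotfinder, and the deposited intensity of a spot is linear, net of local background, and 0 where the spot was rejected. Set against these intensities, the deposited log10 values follow 1 channel per array, with ORF and intergenic names exchanged. What those values hold on replicates 1 and 2 is not settled (r = 0.65 and 0.53 with both channels, against 0.97 on replicate 3), nor why they would follow 1 channel. The authors used GeneSpring for median scaling, per the labels' protocols. Software versions and build: not given in the sources used here.

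Spots with signal in both channels were kept, log2 ratios were averaged over the spots of a name, and each array was centred on its median, without loess. Control names (49) and names marked as missing (230) were left out. Rejected input spots numbered 7590, 14674 and 1441 of 22176, which left 7756, 4392 and 9909 features with a ratio. limma 3.58.1 in R 4.3.3 (lmFit with an intercept, eBayes, Benjamini-Hochberg) was fitted on the 4267 features measured on all arrays, and on 776 genes for intergenic minus ORF. It was tested on simulated data with a common spread for all features, which does not check the p-values of features with a larger spread. Of 9969 features, 95.0% matched a gene of ASM294v3. Members and lists were chosen with earlier results of these data known. The text names all members, the 5 nearest intergenic features to each raised gap, genes within 3 places of the tef103 and thf1 gap, and the extremes of the list of translation factors. The same neighbourhood was planned for ef1-b as tef5 and was not made, since tef5 is a separate feature. Alternatives were the direction of replicate 3, loess, centring, normexp, undetected input, dim spots, median of spots, limma's trend, each replicate left out, and the deposited values.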

Additional observations from a re-analysis of the deposited data

How the results depend on the processing

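In the alternatives that read replicate 3 in the likely direction and gave a ratio, the means of the raised gaps ran from 2.45 to 3.80 for ef1-b and from 2.31 to 3.79 for SPBC839.16, and all passed. With shared centring the adjusted p was 3.27e-04 and 3.72e-04. With the same letters the means were 0.46 and 0.39, each over 2 positive values and 1 negative one. Their calls in limma were lost with replicate 3 read with the same letters and in the authors' deposited 1-channel values (ef1-b 3.84, adjusted p = 0.0754; SPBC839.16 3.15, adjusted p = 0.105), which are no ratios to input. With dim spots left out, the SPBC839.16 gap had no value on all arrays. Leaving out each replicate in turn gave 2.49 to 3.45 and 2.34 to 3.31, and 2 raised members each time.

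With the same letters for replicate 3, limma called 0 features above, 0 below, 0 members, 0 genes with intergenic above ORF and 0 other translation factor gaps. At an unadjusted p under 0.05, the counts were 14 features above, 133 below, 0 members, 8 genes and 0 translation factor gaps. Loess gave 96 features below, 143 genes and 1 translation factor gap. Centring on shared features gave 207 below. Normexp gave 266 below and 1 translation factor gap. Undetected input set low gave 145 above, 3 members by percentile and 0 translation factor gaps (3 at an unadjusted p under 0.05). The trend gave 0 below (539 at an unadjusted p under 0.05). Leaving out dim spots gave 221 above, 187 below, 1 member in the test and 1 by percentile, and 37 genes, over fewer features. The deposited values gave 0 members (3 at an unadjusted p under 0.05). Over the replicates left out, features above ranged from 47 to 418 and below from 6 to 873, genes from 53 to 336 and translation factor gaps from 0 to 3. The lowest counts above and below came without replicate 1, and the highest without replicate 3.

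Means of ORF features near 0 turned in sign without passing. The tef3 mean became 0.18 with the same letters and 0.060 with shared centring, and ranged from -0.34 to 0.061 over the replicates left out. The eft2 mean became 0.16 with loess, 0.15 with shared centring, 0.091 with normexp and 0.16 without dim spots, and ranged from -0.25 to 0.12. The ef1-b-x2 mean ranged from -0.95 to 0.14. The ef1-b mean became 0.0043 with loess. In the deposited values ef1-b had 2.12 and SPBC839.16 0.63, which are levels of 1 channel and not ratios. The causes were not tested.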

Other observations

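The ef1-b ORF feature, the ef1-b-x2 feature and the Ef1-b control spots behaved alike across slides: each was below the array median on both E120D slides and above it on the F060D slide in the likely direction, and below it on all 3 with the same letters. The eft2 and SPBC839.16 ORF features showed the same signs, at -0.21, -0.29 and 0.45 and at -0.92, -0.65 and 0.10 on replicates 1 to 3, and tef3 did not. The median ORF feature stood at -0.48, -0.29 and -0.12 on these arrays, so values below the array median are common among ORF features. The share of all ORF features with these signs is not given here. All intergenic members with a ratio were above the median in the likely direction, as were 71.9%, 75.1% and 62.4% of all intergenic features on replicates 1 to 3. The eft2-2 gap on replicates 1 and 2 and the ef1a-b gap on replicate 3 lay below the median intergenic feature of their array (0.49, 0.49 and 0.15). These are values of 3 arrays, given without a test.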
